A study of Mus musculus with 28 samples.

Results

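Among 11 samples of liver next to a c-Myc tumour, 3 had higher levels of transcripts of developing blood cells. Some of these transcripts, but not all, were near 0 in the others. The 3 samples were picked by a measured value: peritumour libraries with Slc4a1, the red cell anion exchanger (band 3), at 10 or more CPM (counts scaled to the library total) formed a Slc4a1-high class, and those under 10 CPM a Slc4a1-low class. The rule placed 3 of the 11 Pe_F libraries in the high class and 8 in the low class, out of 28 libraries in the whole series. Slc4a1 measured 45.1, 85.6 and 66.9 CPM in Pe_F replicates 2, 5 and 6 and between 0.185 and 2.14 CPM (median 0.674) in the other 8. The library just inside the threshold was Pe_F replicate 2, at 45.1 CPM, and the one just outside was Pe_F replicate 1, at 2.14 CPM. No library lay between these values, so thresholds of 5 and 20 CPM gave the same classes.

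All mice, in both classes and both tissues, were c-Myc/Alb-cre transgenic, that is, they carried a c-Myc transgene and a Cre recombinase under the albumin promoter, which is active in hepatocytes. Tissue was labelled as tumour of hepatocellular carcinoma (Tu) or peritumour (Pe), and as F or M, letters that the labels leave unexpanded. There was no liver without the transgene among the samples analysed here, and no source used here gives the animals' age. Each peritumour library shares a replicate number and a sample code with a tumour library, which was taken as the same animal; there were 11 such F pairs, and 3 Pe_M and 3 Tu_M libraries serve here as a reference level only. Each animal gave 1 library per tissue, so the p-values of class comparisons within a tissue rest on the spread between animals of 1 genotype.

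In the fetus the liver is the main site of blood formation, and the function passes to the bone marrow around birth. In adult mice the spleen can make blood cells under stress, and the liver can do so to a lesser degree. A red cell precursor switches on GATA1 and KLF1, then the haem enzymes, the globins and the proteins of the membrane skeleton, and loses its nucleus. Neutrophil precursors fill primary granules with enzymes such as myeloperoxidase and neutrophil elastase and later secondary granules with lactoferrin and cathelicidin. Megakaryocytes, which release platelets, carry the integrin αIIbβ3 and the glycoprotein Ib-IX-V complex.

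Library totals ran from 14777567 to 17576921 estimated counts over the series and from 14777567 to 17069966 in Pe_F. Totals did not separate the classes (two-sided exact permutation test over 165 splits, p = 0.23), nor did the number of genes detected (exact p = 0.424). The 10 most abundant genes held 7.97% ± 1.45 (SD, n = 3) of the total in the high class and 10.3% ± 1.03 (SD, n = 8) in the low class (exact p = 0.0364, adjusted p = 0.109 over the 3 measures). Alb, the main secreted protein of hepatocytes, stood at 30860, 8820 and 13830 CPM in Pe_F replicates 2, 5 and 6 and at 22000 to 42380 CPM in the low class. It was abundant in the tumours as well, so its level shows hepatocyte RNA but does not check the peritumour label. Since these are bulk samples, fewer cells of a type and less RNA per cell cannot be told apart.

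All other genes were compared between the classes with edgeR's quasi-likelihood test, with the style of the sample code as a covariate. Of 13783 genes tested, 176 were higher in the high class (1.28% of genes tested) and 5 were lower (0.0363%), together 1.31%, at a Benjamini-Hochberg adjusted p under 0.05. In 170 of the 176, every high library lay above every low library, and over all genes tested that pattern held for 4.07%. The 176 were picked by a test on these same libraries, so their separation largely follows from the call and adds no evidence. Of the 176, 65 belong to 6 lists of blood lineage genes, 4 to other lists and 107 to none. The median log2 fold change over all genes tested was -0.003. Without Pe_F replicate 5, 74 genes were called in place of 181, and without Pe_F replicate 2, 703; 47 of the 65 blood lineage genes were still called without replicate 5 and 63 without replicate 2. Within the second code style alone, 2 high against 6 low libraries, 595 genes were called, 62 of the 65 among them; the first style holds 1 high library, so it gives no value of its own.

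Several genes of the red cell membrane and its skeleton were near 0 in the low class and were detected in all 3 high libraries. Because Slc4a1, which set the classes, is a gene of the same cells, the erythroid values are given as a description, without p. Ermap, a red cell surface protein (chromosome 4, 119175457 to 119190017, GRCm38), measured 11.0, 12.6 and 10.1 CPM in Pe_F replicates 2, 5 and 6 and 0 to 0.203 CPM (median 0.13) in the low class. Ank1, the ankyrin that ties band 3 to the spectrin mesh, measured 7.79, 12.3 and 12.5 CPM against 0.117 to 0.467 CPM (median 0.187). The classes did not overlap for either gene, and their log2 fold changes were 6.19 ± 0.35 and 5.28 ± 0.36 (SE). Kel, the Kell blood group protease, measured 3.96, 6.62 and 3.64 CPM against 0 to 0.0667 CPM, and Rhag, the Rh-associated glycoprotein, 4.22, 6.30 and 2.52 CPM against 0 to 0.0677 CPM. In both genes too, the lowest high library lay above the highest low one.

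Of the 32 late erythroid genes in the table, Slc4a1 included, 23 were called higher and 0 lower, with a median log2 fold change of 2.57 over the 31 tested; the count was 15 without Pe_F replicate 5 and 22 within the second code style. The other 8 tested members did not pass, among them Gypc, glycophorin C, at 48.7, 36.9 and 42.4 CPM against 36.4 to 57.8 CPM. Beside Ermap, Ank1, Kel and Rhag, the calls covered the spectrin Sptb, the membrane proteins Epb42, Dmtn and Rhd, the nuclear factors Hemgn and Tal1, Tmcc2, Trim10, Trim58, Tspo2, Ypel4 and the globin and haem genes described next.

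Promoters of these genes were searched for AGATAA, the core bound by GATA factors, on both strands and without any other motif, in the 250 bases before the transcript start (RefSeq, GRCm38.p6). Of 32 erythroid genes called, 23 had a window in that set and 8 of these held a match (34.8%), against 11.4% of all 27025 genes with a window and 9.99% of all 32851 windows. For the megakaryocyte genes called it was 3 of 11 (27.3%) and for the granulocyte precursor genes 3 of 15 (20%). A match is a description of letters, not a bound site, and with so few genes the shares are imprecise. The windows of 5 called genes with a match are printed, with the AGATAA or its reverse complement TTATCT in capitals. Within each list, genes with a match were taken in order of adjusted p (edgeR). The late erythroid list gave the windows of Kel, Rhd and Epb42, the early list that of Tal1, a transcription factor, and the megakaryocyte list that of F2rl2, a thrombin receptor. They lie at chr6:41704326-41704575 on the minus strand (Kel), chr4:134864286-134864535 on the plus strand (Rhd), chr2:121036878-121037127 on the minus strand (Epb42), chr4:115056176-115056425 on the plus strand (Tal1) and chr13:95696670-95696919 on the plus strand (F2rl2).
Kel: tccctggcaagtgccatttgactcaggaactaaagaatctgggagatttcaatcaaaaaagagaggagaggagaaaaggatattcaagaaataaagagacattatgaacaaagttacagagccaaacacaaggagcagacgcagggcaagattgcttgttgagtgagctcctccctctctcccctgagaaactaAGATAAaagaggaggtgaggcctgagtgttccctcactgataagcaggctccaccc
Rhd: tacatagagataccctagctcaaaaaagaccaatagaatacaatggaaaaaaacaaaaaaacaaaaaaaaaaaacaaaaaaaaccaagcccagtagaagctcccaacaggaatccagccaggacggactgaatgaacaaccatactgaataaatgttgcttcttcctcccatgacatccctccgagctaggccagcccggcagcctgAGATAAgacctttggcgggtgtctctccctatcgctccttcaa
Epb42: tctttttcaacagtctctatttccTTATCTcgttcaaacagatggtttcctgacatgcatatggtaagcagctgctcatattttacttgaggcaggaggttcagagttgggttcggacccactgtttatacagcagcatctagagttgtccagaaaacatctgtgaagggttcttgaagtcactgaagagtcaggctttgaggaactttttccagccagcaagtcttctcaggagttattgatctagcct
Tal1: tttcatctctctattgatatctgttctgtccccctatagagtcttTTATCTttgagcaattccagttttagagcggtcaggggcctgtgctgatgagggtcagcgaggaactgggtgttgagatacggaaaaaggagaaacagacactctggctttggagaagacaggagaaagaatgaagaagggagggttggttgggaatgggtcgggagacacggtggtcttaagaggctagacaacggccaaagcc
F2rl2: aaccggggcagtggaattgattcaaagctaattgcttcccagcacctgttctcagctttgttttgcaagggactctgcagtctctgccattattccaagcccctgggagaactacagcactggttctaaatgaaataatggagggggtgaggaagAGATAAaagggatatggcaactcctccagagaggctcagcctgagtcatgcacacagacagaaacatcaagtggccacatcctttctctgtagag
The match starts 56 bases before the transcript start in Kel, 43 in Rhd, 226 in Epb42, 205 in Tal1 and 95 in F2rl2. Both of the nearest AGATAA matches printed, in Kel and Rhd, are in the forward orientation.

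**Figure D1:**
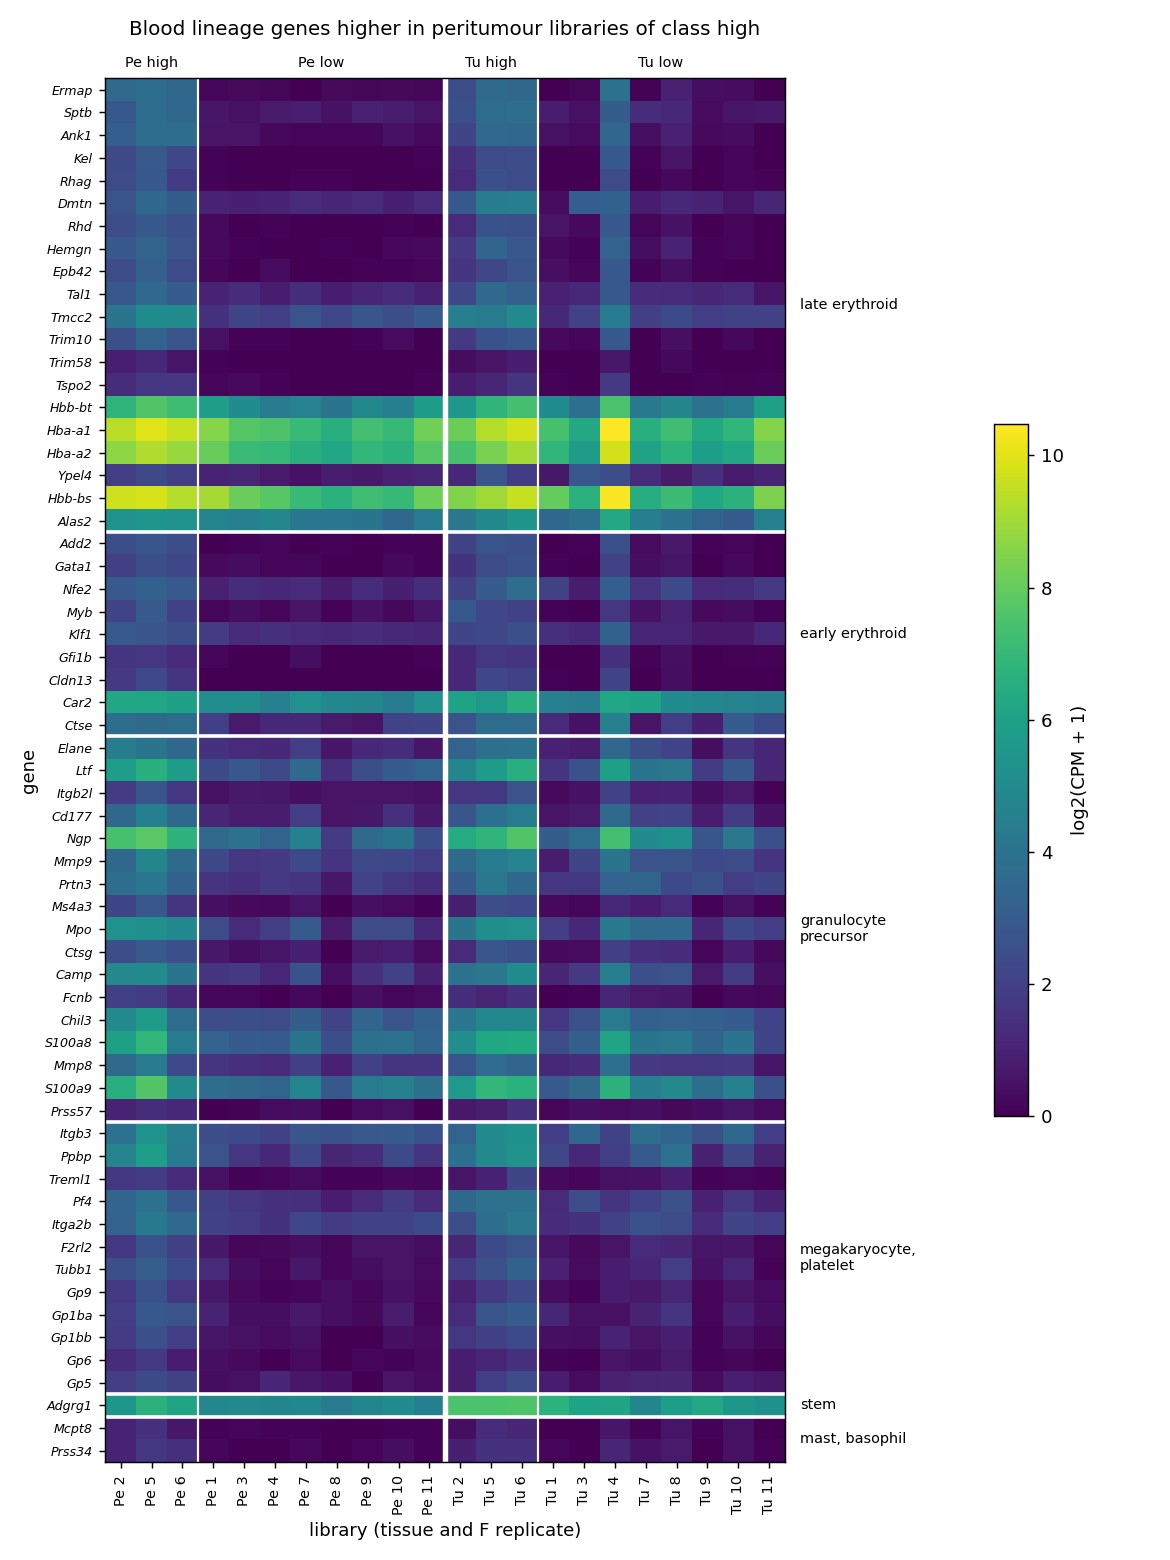
Expression of 61 of the 65 blood lineage genes called higher in the Slc4a1-high peritumour libraries, as log2(CPM + 1) by colour, in 11 peritumour (Pe) and 11 tumour (Tu) libraries of letter F ordered by class. Replicates 2, 5 and 6 are bright in both tissues, though not equally in tumour. The late erythroid list without Slc4a1 summed to 1558 CPM in Tu 2 and to 2644 and 3216 CPM in Tu 5 and 6. In Tu 11 of the low class it was 1698 CPM. Tu 4 is bright in the erythroid and granulocyte rows but not in the megakaryocyte rows.

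Globins and the erythroid haem synthase were also higher, but from a level that every library had. Hba-a1, an α-globin, measured 676, 981 and 774 CPM in Pe_F replicates 2, 5 and 6 and 97.5 to 374 CPM (median 174) in the low class. Hbb-bs, a β-globin, measured 850, 905 and 625 CPM against 103 to 526 CPM (median 184), and Hbb-bt 111, 194 and 148 CPM against 15.4 to 57.2 CPM. For all 3 genes the classes did not overlap, with log2 fold changes of 1.94 ± 0.31, 1.75 ± 0.31 and 2.18 ± 0.34 (SE). The globins belong to pairs of near-identical copies, so how reads were divided between the copies is uncertain. Alas2, the first enzyme of haem synthesis in red cells, measured 40.6, 44.9 and 40.0 CPM against 10.3 to 27.9 CPM (log2 fold change 1.02 ± 0.23). Without Pe_F replicate 5, Hba-a1, Hba-a2, Hbb-bs, Hbb-bt and Alas2 were no longer called, although their log2 fold changes stayed at 1.80, 1.56, 1.55, 2.00 and 0.99; Alas2 also lost its call without replicate 3, 6, 7, 8, 9 or 11, at 0.95 to 1.05. Scaled for transcript length, Hba-a1 stood at 3137 ± 599 TPM (a length-scaled unit; SD, n = 3) in the high class and 746 ± 336 TPM (n = 8) in the low class. Slc4a1 stood at 23.8 ± 7.68 TPM against 0.258 ± 0.214 TPM on that scale. Hba-x, an embryonic globin, was at 0 counts in all 11 Pe_F libraries. It was the 1 of 4 listed embryonic globins in the table, so Hbb-y, Hbb-bh1 and Hbb-bh2 could not be looked at.

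Early erythroid genes and regulators were called less completely, 10 of 33 against 23 of 32 late genes. Gata1, the master factor of red cells and megakaryocytes, measured 2.99, 4.67 and 3.64 CPM in Pe_F replicates 2, 5 and 6 and 0 to 0.258 CPM in the low class (log2 fold change 4.83 ± 0.48). Klf1, which switches on adult β-globin, measured 6.49, 5.84 and 4.70 CPM against 1.14 to 2.60 CPM (1.74 ± 0.23). Cldn13, a claudin of mouse erythroblasts, measured 2.34, 4.03 and 1.99 CPM and had 0 counts in all 8 low libraries; against a floor of 3 counts over that class it was at least 118.7-fold higher. Each of these 3 genes separated the classes completely. In all, 10 of 33 early erythroid genes were called higher, and 0 lower, with a median log2 fold change of 0.66. The 10 also include Tal1, Add2, Nfe2, Myb, Gfi1b, Car2 and Ctse, of which Car2 and Ctse lost the call without replicate 5 (log2 fold changes 1.10 and 2.76). Epor, the erythropoietin receptor, did not pass, at 2.47, 2.92 and 3.04 CPM against 0.803 to 1.55 CPM (log2 fold change 1.24 ± 0.28), although the classes did not overlap. Tfrc, the transferrin receptor that most dividing cells use, did not pass and overlapped, at 251, 361 and 118 CPM against 66.9 to 244 CPM (0.75 ± 0.30).

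Most of the listed granulocyte precursor genes rose in the same libraries, from the earliest granule enzymes to the latest. Elane, neutrophil elastase (chromosome 10, 79886312 to 79888216), measured 20.6, 15.2 and 10.7 CPM in Pe_F replicates 2, 5 and 6 and 0.541 to 2.75 CPM (median 1.33) in the low class. Mpo, myeloperoxidase, measured 40.9, 36.9 and 28.9 CPM against 0.677 to 6.74 CPM (median 3.46). Both are genes of promyelocytes, and in neither did the classes overlap: the log2 fold changes were 3.29 ± 0.34 (adjusted p = 0.000234, edgeR) and 3.36 ± 0.47 (adjusted p = 0.00229, edgeR). Of the secondary granule genes, Ngp measured 170, 222 and 109 CPM against 2.64 to 23.4 CPM (3.73 ± 0.43, adjusted p = 0.000813, edgeR). Camp, the cathelicidin precursor, measured 29.5, 31.9 and 15.2 CPM against 0.338 to 5.27 CPM (3.43 ± 0.49, adjusted p = 0.00298, edgeR). S100a8, a calcium-binding protein of mature neutrophils, measured 60.9, 122 and 19.1 CPM against 4.74 to 15.9 CPM, so that its lowest high library lay just above the highest low one (2.65 ± 0.41, adjusted p = 0.00548, edgeR). Without Pe_F replicate 5, S100a8 was not called (1.92, adjusted p = 0.228, edgeR).

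In all, 17 of 25 granulocyte genes rose and 0 fell, with a median log2 fold change of 2.65, and the same 17 of 25 count came without a filter on low counts. It was 12 without Pe_F replicate 5. The 8 that did not pass include Orm1, an acute phase protein that hepatocytes secrete, at 347, 230 and 304 CPM against 414 to 1410 CPM (-1.49 ± 0.39, adjusted p = 0.098, edgeR). DESeq2 called 19 members higher and 1 lower. Summed over the list, the level was not higher in the high class. It was 1268 to 2752 CPM (median 1747) there and 784 to 2798 CPM (median 2336) in the low class.

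Megakaryocyte and platelet genes were the third lineage that rose. Itgb3, the β3 integrin chain, measured 14.6, 39.1 and 21.2 CPM in Pe_F replicates 2, 5 and 6 and 3.15 to 7.11 CPM (median 5.19) in the low class (2.12 ± 0.23, adjusted p = 0.000316, edgeR). Its partner Itga2b, the αIIb chain, measured 8.77, 17.9 and 11.0 CPM against 1.92 to 4.04 CPM (1.93 ± 0.24, adjusted p = 0.000813, edgeR). Pf4 and Ppbp, chemokines of platelet granules, measured 9.74, 14.5 and 6.42 CPM against 0.812 to 3.00 CPM and 25.0, 57.3 and 18.5 CPM against 1.15 to 5.41 CPM. Their log2 fold changes were 2.34 ± 0.29 and 3.54 ± 0.42 (adjusted p = 0.000813 and 0.000735, edgeR). In all of these genes Pe_F replicate 5 had the highest value and the classes did not overlap. Of the 19 members, 13 rose and 0 fell (median log2 fold change 2.82), including all 5 glycoproteins listed (Gp1ba, Gp1bb, Gp5, Gp6 and Gp9); 11 rose without replicate 5, where Gp5 and Gp6 were not called (2.82, adjusted p = 0.104, and 2.61, adjusted p = 0.173, edgeR).

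Stem and progenitor genes had a median log2 fold change of 0.04, and mast cell and basophil genes one of 2.22 over 4 members tested. Of 17 stem and progenitor genes, 2 rose, among them Adgrg1, an adhesion receptor that several tissues express (44.6, 104 and 67.4 CPM against 19.2 to 32.8 CPM; 1.31 ± 0.19, adjusted p = 0.00227, edgeR). Kit, the stem cell factor receptor, measured 6.36, 6.36 and 8.87 CPM against 4.00 to 9.27 CPM and Cd34 7.47, 7.01 and 10.4 CPM against 7.14 to 25.3 CPM, and neither passed. The basophil proteases Mcpt8 and Prss34 rose, 2 of 11 mast cell and basophil genes in the table. Mcpt8 measured 1.04, 1.82 and 0.596 CPM against 0 to 0.129 CPM (4.08 ± 0.53). Prss34 measured 1.04, 2.27 and 1.72 CPM against 0 to 0.304 CPM (3.90 ± 0.59). All 4 tested members had a positive log2 fold change, but Mcpt8 and Prss34 passed the filter on low counts only through the high class. The calls of these 2 genes, that shared sign and the list median are therefore a description. Epx and Prg2, granule proteins of eosinophils in no list and chosen after their values were seen, rose as well: Epx measured 0.974, 0.39 and 1.66 CPM against 0 to 0.0677 CPM, and Prg2 4.29, 1.82 and 4.04 CPM against 0 to 1.11 CPM.

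Tested genes of lymphoid lineages, macrophages and stroma gave no such rise. No member of the lists of B cell precursors (13 in the table), B and plasma cells (16), T and NK cells (18), Kupffer cells (18), splenic stroma (12) or sinusoidal endothelium (12) was called in either direction by edgeR. The filter on low counts left 6, 12, 15, 18, 7 and 12 of these to be tested, and the rest could not be called. At an unadjusted p under 0.05 the counts higher and lower were 1 and 1, 2 and 2, 0 and 4, 5 and 1, 1 and 1, and 1 and 1; DESeq2 called 1 B cell precursor and 1 Kupffer gene higher and 1 T and NK gene lower. Of the 15 tested T and NK genes 1 had a positive log2 fold change, with a list median of -0.74. Vpreb1, a surrogate light chain of B cell precursors, stayed at 0 to 0.135 CPM in all 11 Pe_F libraries, as did Epo, the hormone of red cell formation, at 0 to 0.195 CPM. Of the monocyte and macrophage list Chil3, which neutrophil precursors share, was the 1 of 17 members called (2.33 ± 0.36, adjusted p = 0.00502; 1.83, adjusted p = 0.149 without replicate 5, edgeR). Summed over the splenic list the levels were 31.0 to 46.3 CPM in the high class and 21.8 to 54.1 CPM in the low class. Summed pancreatic acinar genes were at 2.25 to 3.82 CPM against 3.11 to 6.37 CPM, and adipocyte genes at 28.0 to 52.1 CPM against 21.6 to 46.4 CPM, with 0 called in either list (edgeR and DESeq2; unadjusted, 1 acinar gene lower and 0 adipocyte genes). Only 1 of the 7 acinar and 2 of the 5 adipocyte genes in the table were tested by edgeR.

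**Figure D2:**
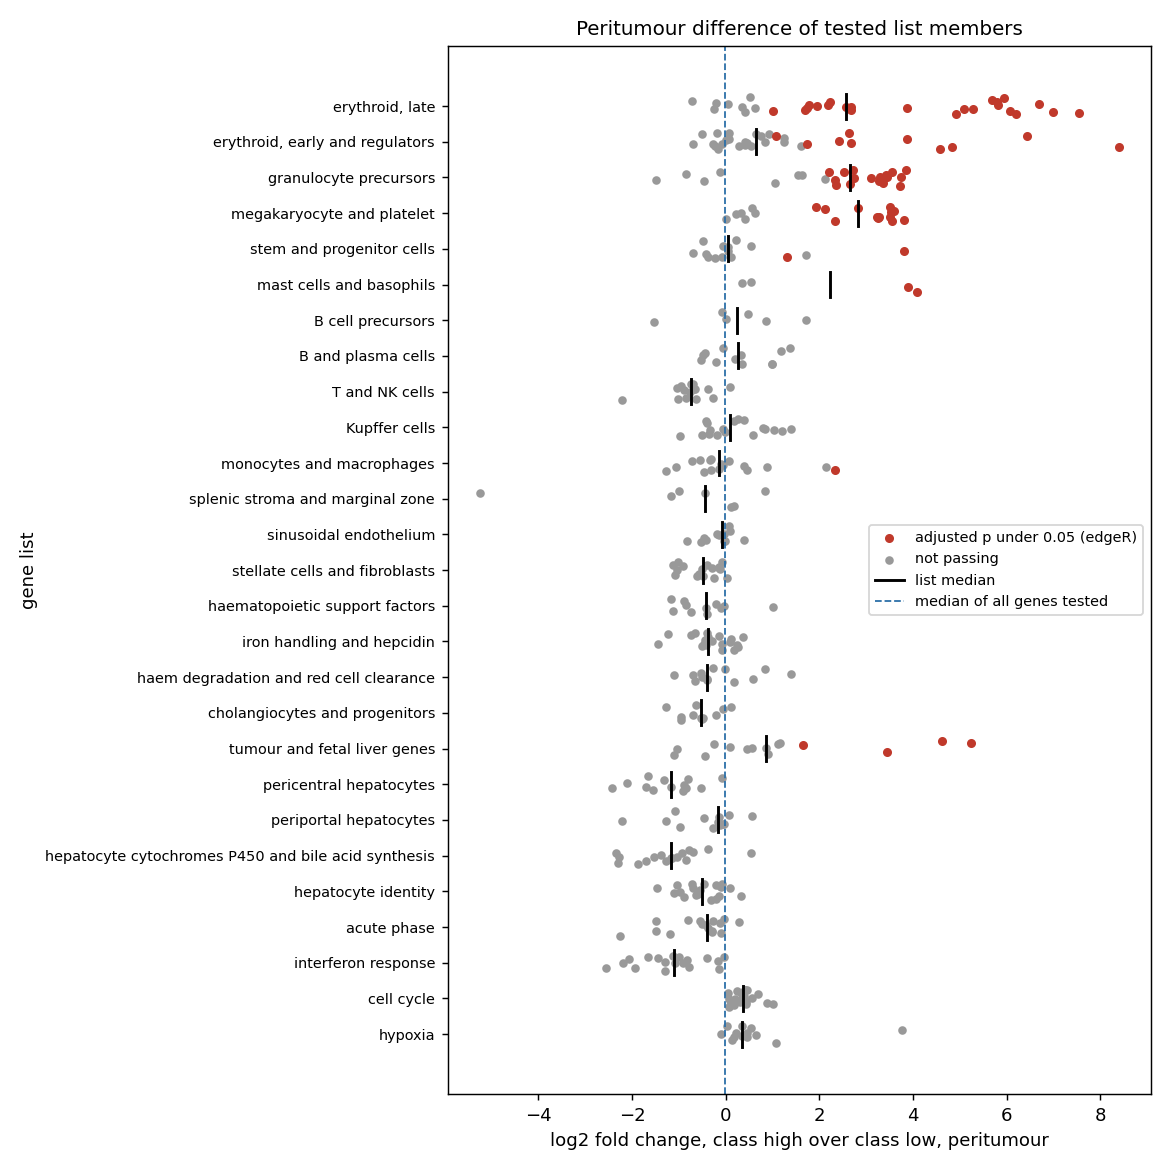
Log2 fold change of each tested list member between Slc4a1-high and Slc4a1-low peritumour libraries, 1 row per list, for the 27 lists with at least 3 members tested; red points passed (edgeR, adjusted p under 0.05), black ticks are list medians and the dashed line is the median of all genes tested. The red points lie in the blood lineage lists, in 4 fetal liver genes and in Chil3 of the macrophage list, while all tested interferon and pericentral genes lie below 0.

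The 3 libraries also carried fetal liver and tumour genes. Afp, α-fetoprotein, the fetal counterpart of albumin (chromosome 5, 90490714 to 90515931), measured 343, 2407 and 508 CPM in Pe_F replicates 2, 5 and 6 and 3.21 to 176 CPM (median 22.7) in the low class. Dlk1, a Notch-family ligand of fetal hepatoblasts, measured 13.4, 35.6 and 19.3 CPM against 0.0586 to 6.07 CPM. Neither overlapped between the classes, with log2 fold changes of 5.24 ± 0.97 (adjusted p = 0.0183, edgeR) and 4.62 ± 0.87 (adjusted p = 0.0207, edgeR). Peg3, an imprinted zinc finger gene, overlapped by a small margin, at 49.0, 264 and 37.0 CPM against 3.16 to 37.4 CPM (3.44 ± 0.64, adjusted p = 0.0186, edgeR). Cd24a, a surface protein of progenitor and tumour cells and of immature blood cells, measured 45.0, 61.4 and 28.8 CPM against 8.34 to 17.8 CPM (1.66 ± 0.23, adjusted p = 0.00215, edgeR). These were the 4 of 16 members of the tumour and fetal liver list that passed. Without Pe_F replicate 5, only Cd24a of these 4 passed; Afp was at 3.67 (adjusted p = 0.173), Dlk1 at 3.97 (0.173) and Peg3 at 1.74 (0.189; edgeR). Peg3 was also not called without replicate 4 or 9 (3.37 and 3.35), and Afp and Dlk1 also missed the threshold when code style was left out.

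Sall4, a stem cell transcription factor of fetal liver, measured 2.01, 24.1 and 5.96 CPM against 0 to 0.469 CPM (5.41 ± 0.67). Trim71, a target of let-7 in embryonic cells, was chosen after its values were seen. It measured 0.909, 4.61 and 1.52 CPM against 0 to 0.0631 CPM (6.62 ± 0.60). Sall4 and Trim71 were called higher and kept their call without each replicate in turn. Both passed the filter on low counts only through the high class, so these calls are a description, given without p. Of the list members that were not called, Igf2, a fetal growth factor, and Gpc3 were also chosen after their values were seen: Igf2 stood at 7571, 6481 and 7938 CPM against 230 to 7332 CPM, and Gpc3, glypican-3, at 83.1, 19.3 and 79.7 CPM against 19.1 to 131 CPM. Myc stood at 488, 460 and 650 CPM against 185 to 472 CPM (0.65 ± 0.27, adjusted p = 0.236, edgeR). Mki67, a marker of dividing cells, ranged widely in both classes, at 203, 159 and 15.8 CPM against 19.3 to 228 CPM. All 24 cell cycle genes had positive log2 fold changes (median 0.37); edgeR and DESeq2 called 0 of them, and 6 had an unadjusted p under 0.05.

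**Figure D3:**
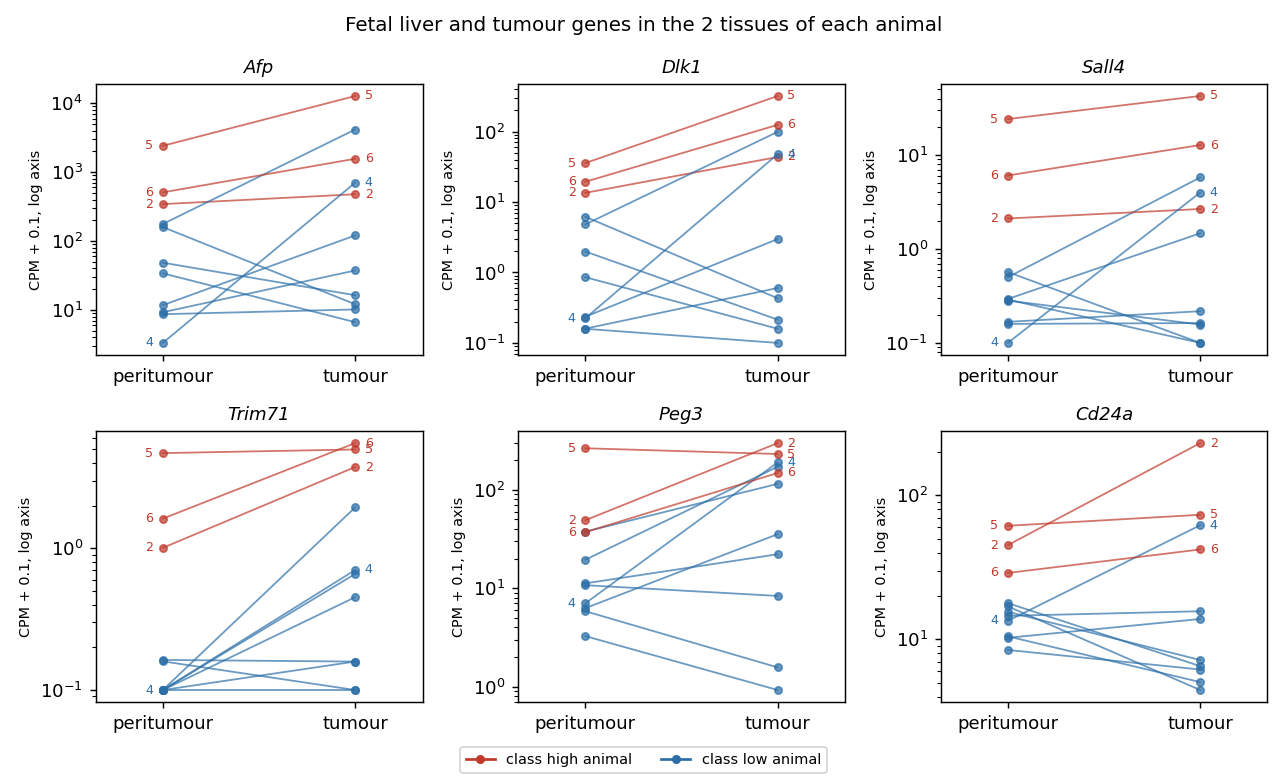
CPM + 0.1 on a log axis of 6 fetal liver and tumour genes in peritumour and tumour tissue of each F animal, joined by a line, with Slc4a1-high animals in red and numbered together with animal 4. The 3 red animals lead in peritumour tissue, except for Peg3, where animal 6 lies level with a blue one, with replicate 5 at the top for Afp (2407 CPM) and Sall4 (24.1 CPM).

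The largest rises among genes that averaged at least 10 CPM in the high class included Afp, Sall4, Ank1, Ermap, Slc36a2, Dlk1, Acss1, Lgals2 and Ngp. Acss1, the mitochondrial acetyl-CoA synthetase, measured 30.1, 136 and 48.6 CPM against 1.48 to 7.67 CPM (4.58 ± 0.46, adjusted p = 0.000251, edgeR). Slc36a2, a proton-coupled transporter of small amino acids, measured 1.82, 30.8 and 4.11 CPM against 0 to 1.07 CPM (4.92 ± 0.85, adjusted p = 0.0111, edgeR), and Lgals2, a galectin, 3.83, 43.1 and 1.99 CPM against 0.117 to 1.47 CPM (4.50 ± 0.86, adjusted p = 0.0229, edgeR). The latter pair rested on Pe_F replicate 5: without it Slc36a2 was at 3.14 (adjusted p = 0.132) and Lgals2 at 1.91 (adjusted p = 0.519, edgeR), and Lgals2 also missed the threshold without replicate 4, 8 or 9 (4.28 to 4.59). Psat1 and Phgdh, enzymes of serine synthesis chosen after their values were seen, measured 141, 607.7 and 268 CPM against 53.1 to 115 CPM and 162, 387 and 245 CPM against 60.4 to 146 CPM (2.09 ± 0.35, adjusted p = 0.00849, and 1.23 ± 0.26, adjusted p = 0.0375, edgeR). Psat1 was not called without replicate 5 (1.50, adjusted p = 0.0922, edgeR), and Phgdh was not called without replicate 5 (0.98, adjusted p = 0.398, edgeR) nor without replicate 3, 6, 7, 8 or 11 (1.17 to 1.26).

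The 5 genes that fell were Slc22a26, Clic5, Mill2, Hspb1 and Irf9. Hspb1, a small heat shock protein, measured 17.4, 13.1 and 20.5 CPM against 25.1 to 60.0 CPM (-1.40 ± 0.26, adjusted p = 0.0141, edgeR). Irf9, the DNA-binding subunit of the interferon-activated ISGF3 complex, measured 27.3, 28.3 and 29.6 CPM against 34.8 to 64.1 CPM (-0.78 ± 0.16, adjusted p = 0.0331, edgeR). Every high library lay below every low library in both genes. Hspb1 was not called without replicate 5 (-1.07, adjusted p = 0.0848) or 6 (-1.50, adjusted p = 0.0558), and Irf9 kept its call without replicate 1, 2 or 4 but not without any other (edgeR, -0.62 to -0.82).

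Hepatocyte and interferon genes had mostly negative log2 fold changes in the high class and did not pass. All 18 tested interferon response genes had negative log2 fold changes (median -1.11) and 14 of them an unadjusted p under 0.05, but edgeR called 0 and DESeq2 4. Their summed level was 431 to 698 CPM in the high class and 712 to 4158 CPM in the low class. All 13 pericentral hepatocyte genes were negative too (median -1.16), with 10 at an unadjusted p under 0.05, 0 called by edgeR and 2 by DESeq2. Cyp2e1, a P450 of the zone around the central vein, measured 528, 108 and 1055 CPM against 496 to 2503 CPM, with overlap (-1.32 ± 0.63, adjusted p = 0.283, edgeR). Of the lists of P450 and bile acid genes (median -1.16), hepatocyte identity (-0.50), acute phase (-0.40), periportal (-0.16), stellate cell (-0.48) and cholangiocyte genes (-0.52), edgeR called 0 members; 9, 8, 5, 3, 4 and 2 were lower at an unadjusted p under 0.05, against 0, 0, 0, 1, 0 and 0 higher, and DESeq2 called 0, 3, 3, 2, 3 and 1 lower. Hypoxia genes had a median of 0.36, with 0 called by edgeR, 6 higher at an unadjusted p under 0.05 and 2 called by DESeq2. Alb lay within the range of the low class in Pe_F replicate 2 and below it in replicates 5 and 6. Cyp2e1 lay within that range in replicates 2 and 6 and below it in replicate 5. How these levels go with the blood lineage genes was not tested.

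Factors that feed blood formation and iron genes were not called in either direction. Of 17 support factors in the table edgeR tested 11 and called 0, with 1 higher and 4 lower at an unadjusted p under 0.05 and 1 lower by DESeq2. Kitl, stem cell factor, measured 7.47, 7.86 and 2.12 CPM against 0.947 to 4.27 CPM (1.01 ± 0.42), Cxcl12 199, 239 and 234 CPM against 188 to 486 CPM (-0.43 ± 0.24) and Thpo, thrombopoietin, 18.2, 17.7 and 19.3 CPM against 16.9 to 29.5 CPM (-0.40 ± 0.18). Their adjusted p-values were 0.23, 0.353 and 0.272 (edgeR). Hamp, the iron hormone hepcidin, measured 411, 243 and 307 CPM against 155 to 766 CPM (-0.47 ± 0.42, adjusted p = 0.561, edgeR). Of the 21 iron genes and 13 genes of haem degradation, 0 were called by edgeR, with 0 and 3 higher and 4 and 3 lower at an unadjusted p under 0.05, and DESeq2 called 1 iron gene lower. In the latter list Hmox1, haem oxygenase 1, measured 104, 124 and 81.2 CPM against 41.1 to 91.3 CPM (0.59 ± 0.20, adjusted p = 0.181), and Spic, a factor of red pulp macrophages, 9.55, 22.2 and 4.90 CPM against 3.71 to 10.1 CPM (0.83 ± 0.38, adjusted p = 0.262, edgeR).

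The tumours of the same animals were not used to set the classes, although it was already known from earlier work on these data that replicates 2, 5 and 6 are high in both tissues. Slc4a1 measured 22.6, 66.5 and 73.0 CPM in Tu_F replicates 2, 5 and 6. In the tumours of the 8 Slc4a1-low animals it was 0.176 to 4.47 CPM in 7 and 69.4 CPM in Tu_F replicate 4, whose peritumour library had 0.185 CPM. The difference did not pass over all 11 tumours (3.01 ± 1.39, adjusted p = 0.223, edgeR), and it did without replicate 4 (5.23, adjusted p = 0.00525, edgeR), a choice that follows from its value and serves as a description. In the M animals Slc4a1 stayed at 0.694 to 1.46 CPM in peritumour and 0.576 to 2.93 CPM in tumour tissue (n = 3 each).

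Over all genes, 468 of 14066 were higher (3.33%) and 412 lower (2.93%; 6.26% in either direction) in the tumours of Slc4a1-high animals. Scaling by library totals alone gave 827 higher and 257 lower, with a median log2 fold change of 0.27 in place of 0.03. Without Tu_F replicate 5 the count fell to 235 and without Tu_F replicate 2 to 348. Of the 176 genes higher in peritumour tissue, 36 were also higher in tumour, which is 20.5% of the first list and 7.69% of the second; 12 of the 36 are blood lineage genes. None of the 5 genes lower in peritumour tissue was lower in tumour.

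Platelet genes were the blood lineage with most calls in tumour. Itga2b measured 4.49, 12.5 and 16.8 CPM in Tu_F replicates 2, 5 and 6 against 1.44 to 5.24 CPM in the low animals (1.69 ± 0.34, adjusted p = 0.0162, edgeR), and its lowest high tumour overlapped with the low animals. Pf4 measured 10.3, 13.9 and 14.02 CPM against 0.941 to 4.99 CPM, with no overlap (2.09 ± 0.46, adjusted p = 0.0211, edgeR). In all, 7 of 19 rose (among them Itga2b, Gp1bb, Pf4, F2rl2, Gp9 and Ppbp) and 0 fell, against 3 risen granulocyte genes of 25 (Chil3, Mpo and Mmp9, with Orm1 lower), 1 late erythroid gene of 32 (Tmcc2, with Gypc lower) and 0 of 33 early erythroid genes. Of the early genes 10 were higher and 6 lower at an unadjusted p under 0.05, and DESeq2 called 4 higher and 2 lower. The numbers turn on single libraries: without replicate 4 the higher calls were 17 late erythroid, 7 early erythroid, 17 granulocyte and 6 platelet genes. Without replicate 5 or without replicate 6 none of these 4 lists had a higher call, and without replicate 2 there were 2, both platelet genes.

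Tu_F replicate 4 was high in red cell and neutrophil genes but not in platelet genes. Alas2 stood at 78.8 CPM there, Hba-a1 at 1417, Elane at 10.5 and Ngp at 162 CPM, each the highest of the 8 tumours from low animals. Of the genes called higher in peritumour tissue, 22 of 23 late erythroid, 10 of 10 early erythroid and 14 of 17 granulocyte genes were higher in Tu_F replicate 4 than in the other 7 tumours of low animals, as were 1 of 13 megakaryocyte genes and 2 of 2 basophil genes. Its platelet genes lay within the range of the other low animals, with Itga2b at 3.15, Itgb3 at 3.22 and Pf4 at 2.08 CPM. In Tu_F replicates 2, 5 and 6 Itgb3 stood at 8.79, 32.1 and 36.8 CPM. This is 1 library with no replicate, chosen by its values, and no test was made. How many of all genes were higher in Tu_F replicate 4 than in the other 7 tumours of low animals was not counted. The list counts are therefore a description.

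**Figure D4:**
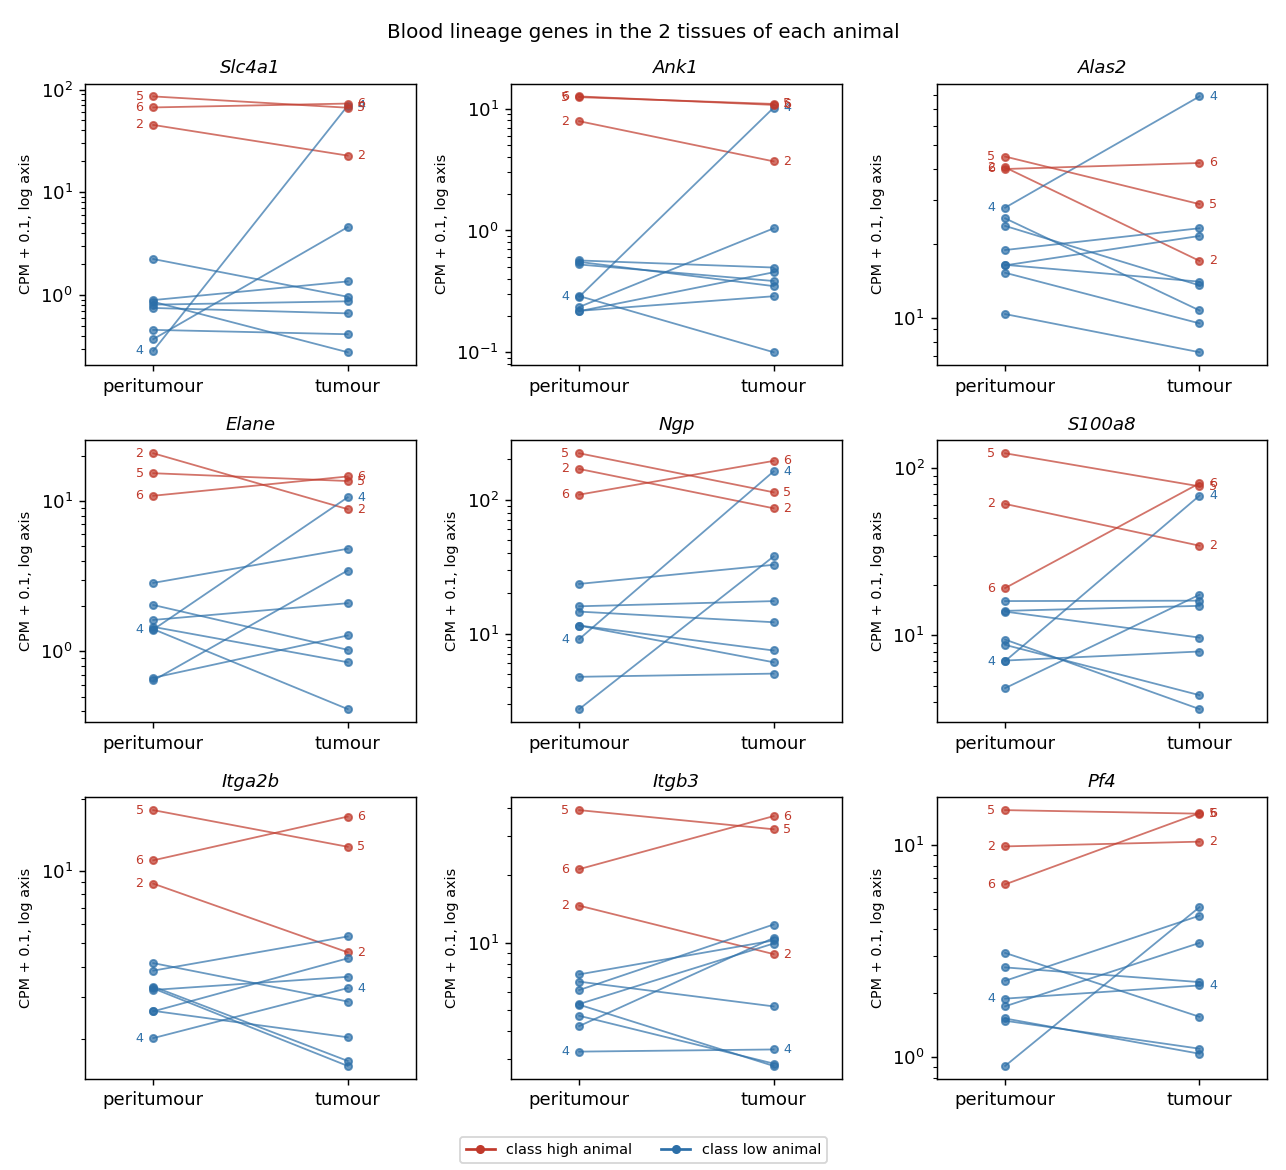
CPM + 0.1 on a log axis of 9 blood lineage genes in peritumour and tumour tissue of each F animal, joined by a line, with Slc4a1-high animals in red and numbered together with animal 4. The line of animal 4 climbs to the level of the red animals for erythroid (top) and granulocyte (middle) genes but stays among the blue ones for Itga2b, Itgb3 and Pf4 (bottom).

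Several bile duct and progenitor genes were higher in the tumours of the 3 animals, most of all in Tu_F replicate 2, and none was called in their peritumour tissue. Krt19, a keratin of bile ducts and liver progenitors (chromosome 11, 100140810 to 100145926), measured 799, 17.9 and 39.0 CPM in Tu_F replicates 2, 5 and 6 and 2.15 to 7.85 CPM (median 4.43) in the tumours of low animals (4.18 ± 0.87, adjusted p = 0.0188, edgeR). In peritumour tissue it measured 5.52, 3.25 and 10.6 CPM against 2.74 to 17.5 CPM (-0.50 ± 0.45, adjusted p = 0.567, edgeR). The difference between the tissues was tested over the 22 F libraries with the animal as a block, a fit added after the data were seen: it was 4.46 ± 0.91 for Krt19 (adjusted p = 0.0289, edgeR). Of 14278 genes, 233 had a larger class difference in tumour (1.63%) and 125 a smaller one (0.875%), 2.51% in all. Tspan8, a tetraspanin, measured 362, 5.77 and 17.1 CPM against 1.06 to 6.91 CPM, and Krt7 256, 22.5 and 14.1 CPM against 0.99 to 21.98 CPM, so both overlapped. Their class differences in tumour were 3.76 ± 0.70 (adjusted p = 0.0132) and 3.09 ± 0.60 (adjusted p = 0.0151, edgeR), and Krt7 was not called without replicate 2 or 5 (2.48 and 3.20).

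Of 12 cholangiocyte and progenitor genes 7 rose in tumour (Tspan8, Cldn7, Krt7, Krt19, Epcam, Prom1 and Cldn4), with a median log2 fold change of 2.62, and 5 (Spp1, Krt19, Tspan8, Krt7 and Cldn7) passed the test between tissues. Tu_F replicate 2 had by far the highest level, a summed 2665 CPM, against 308 and 208 CPM in replicates 5 and 6 and 76.5 to 356 CPM in the low animals, so replicates 5 and 6 lay within the low range. Without replicate 2, 3 of the 7 passed in tumour, and 3 without replicate 5. The test between tissues for Krt19 was then at 3.00 (adjusted p = 0.0622, edgeR) without replicate 2, and it also missed the threshold without replicate 7, 10 or 11 (4.29 to 4.48). Without replicate 2, Tspan8, Krt7 and Cldn7 missed it too (2.78, 3.01 and 3.99). Krt7 and Cldn7 kept this call only without replicate 3 or 6 and lost it with each other replicate left out and with no block (Krt7 3.01 to 4.37, Cldn7 3.63 to 4.63). Tspan8 also lost it without replicate 7, 8, 9, 10 or 11 (3.95 to 4.26). In tumour, the Krt19 difference missed it without replicate 3 (3.50, adjusted p = 0.0525, edgeR). With no block, 75 genes passed the test between tissues in place of 358, and without replicate 2, 5 did.

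**Figure D5:**
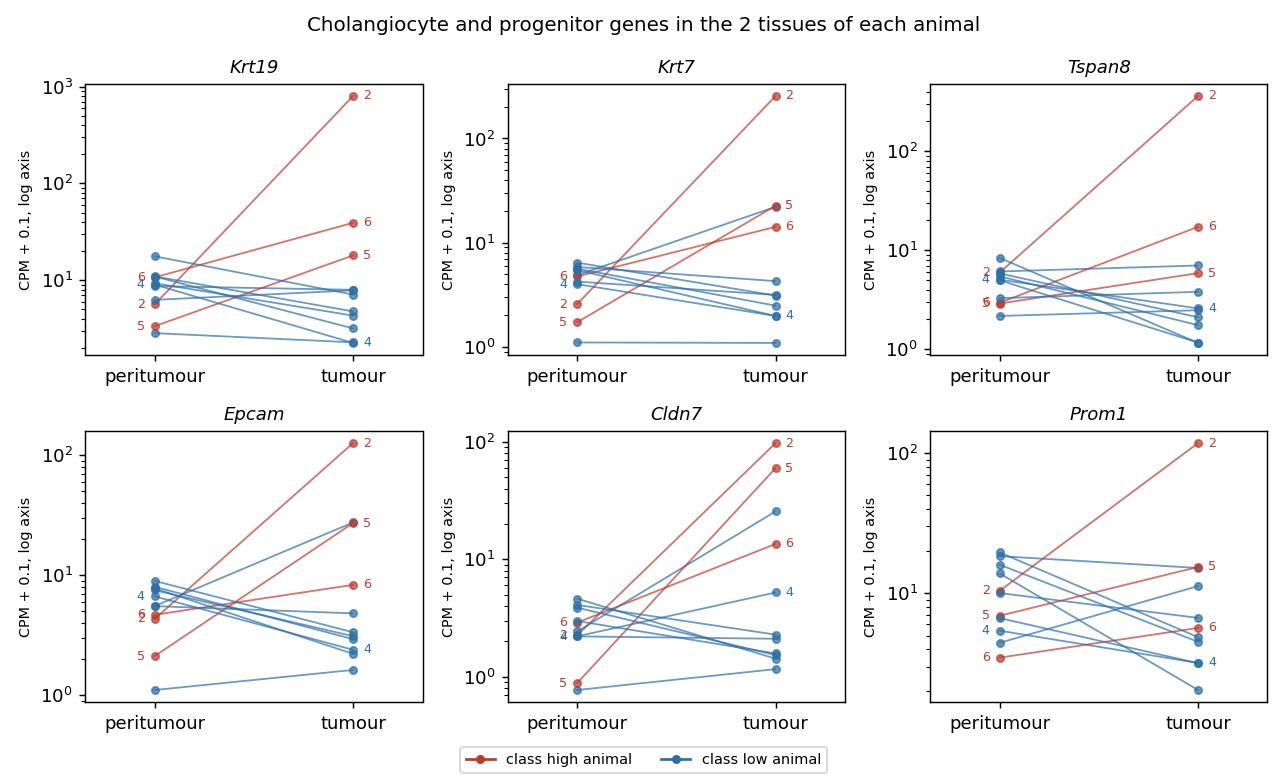
CPM + 0.1 on a log axis of 6 cholangiocyte and progenitor genes in peritumour and tumour tissue of each F animal, joined by a line, with Slc4a1-high animals in red and numbered together with animal 4. The red lines climb from peritumour to tumour tissue, most of all in animal 2, at 799 CPM for Krt19 in tumour, and in Prom1 animal 6 ends among the blue lines.

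Some hepatocyte genes fell in the tumours of the Slc4a1-high animals. Of 20 identity genes 7 fell and 0 rose (median -0.86), among them F9, coagulation factor IX, Tdo2, which opens the tryptophan ring, and the nuclear receptors Nr1i2 and Nr1i3. Of 17 P450 and bile acid genes 3 fell (Cyp3a13, Cyp3a11 and Cyp2d10), of 16 acute phase genes 4 (Orm2, Orm1, Crp and Itih4) and of 18 interferon genes 3 (Iigp1, Ddx58 and Cxcl9). Of the 13 pericentral and 13 periportal genes edgeR called 0 in either direction (medians -1.33 and -1.02), with 7 and 12 lower and 0 and 1 higher at an unadjusted p under 0.05 and 6 and 11 lower by DESeq2. Orm1 measured 187, 174 and 76.3 CPM against 217 to 858 CPM, with no overlap (-2.04 ± 0.50, adjusted p = 0.0323, edgeR). Thpo, which hepatocytes make, measured 10.5, 14.8 and 18.3 CPM against 21.6 to 38.3 CPM, again with no overlap (-1.24 ± 0.28, adjusted p = 0.0242, edgeR). Orm1 was not called without replicate 3, 5 or 6 (-1.60 to -2.09), Thpo not without replicate 2 or 5 (-1.05 and -1.23), and without replicate 5 none of the 7 identity genes passed, with F9 at -1.64 in place of -1.62, Nr1i3 at -1.36 in place of -1.30 and Tdo2 at -1.41 in place of -1.80. Cyp3a11 and Cyp2d10 lost their calls without replicate 5 (-1.42 and -1.81) or 6 (-1.83 and -2.36), and Cxcl9 kept its call only without replicate 1 or 2 (-1.19 to -1.87 without each of the others).

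Among genes averaging at least 10 CPM in the class where they were higher, those with the largest rises in these tumours were Igf2bp1, AF529169, Dnajc6, Krt17, Cldn6, Clic6, Gabrp, Wnt7b, Cdh17 and Sgpp2, and those with the largest falls Apol9b, Mbl2, Apol9a, Xlr3a, Slc22a7, Hsd17b6, Prlr, Raet1e, Ido2 and Rxrg. Igf2bp1, an RNA-binding protein of fetal tissues, measured 6.86, 34.3 and 0.438 CPM in Tu_F replicates 2, 5 and 6 and 0 to 1.56 CPM in the low animals, with overlap (7.65 ± 1.49, adjusted p = 0.0151, edgeR); it was not called without replicate 2, 3 or 5 (3.76 to 10.94). Afp measured 477, 12740 and 1562 CPM in Tu_F replicates 2, 5 and 6 against 6.52 to 4153 CPM (median 26.7) in the low animals, where the highest value is Tu_F replicate 3 (4.55 ± 1.88, adjusted p = 0.178, edgeR), and of the 16 tumour and fetal liver genes 0 passed in tumour by edgeR, with 2 higher and 1 lower at an unadjusted p under 0.05 and 1 lower by DESeq2. Trim71, at 3.66, 4.90 and 5.44 CPM against 0 to 1.85 CPM, was higher in both tissues (3.82 ± 0.88 in tumour, adjusted p = 0.0261, edgeR), though in tumour not without replicate 5, 6 or 11 (3.41 to 3.65).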

How the data were processed

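Bulk RNA-seq of 28 libraries was analysed from 1 gene table. Per the file headers, the authors deposited for each gene and library an estimated count and a length-scaled TPM value, with coordinates. The submitters' processing notes name RSEM 1.2.12, HISAT2 2.0.4, DESeq2 1.4.5 and Bowtie2 2.2.5 without their roles, and no source used here says whether counting used strand. Of 18183 lines, 1 without a gene ID was left out, leaving 18182 genes; 26 symbols altered to dates were looked up by gene ID, and 9 columns named Li were not used. Counts, of which 8.06% were not whole, were rounded.

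The classes were set by Slc4a1 at 10 CPM in Pe_F, so p-values describe association with that level. Members and gene lists were chosen with earlier results of these data known. Genes kept by filterByExpr were tested with edgeR 4.0.16 (TMM scaling, robust quasi-likelihood, R 4.3.3) at a Benjamini-Hochberg adjusted p under 0.05, with code style (12 and 16 libraries) as covariate; since a gene can pass the filter through the class where it is high, counts are given over members in the table. TPM served for levels per length. Alternatives were DESeq2 1.42.0, other scalings, no filter, no covariate, 1 code style, other thresholds, a continuous Slc4a1 term and leaving out each replicate. The methods were tested on simulated data.

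Named genes were the 10 largest rises and falls at 10 CPM or more, up to 3 per list and direction, and a fixed set; others are said to be chosen after their values were seen, or are shown as called list members. Tumour and peritumour libraries of 1 number share a sample code. Their deviations correlated at 0.277 to 0.68 over genes, against a median of -0.043 for unpaired libraries, and 10 of 11 tumours correlated best with their own peritumour library. Pairs of libraries differed beyond sampling noise in each tissue, with an index of dispersion of at least 19.2 in peritumour and 74.2 in tumour. Values of some genes counted in the lists are not reported here.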

Additional observations from a re-analysis of the deposited data

Results flagged for a closer look

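Within each class, 84 gene and tissue combinations were searched for 1 library far from the rest, and 17 were found; chance gives about 1 in 20. In tumours of Slc4a1-low animals Tu_F replicate 4 stood apart, with 69.35 CPM for Slc4a1, 78.75 for Alas2, 8.392 for Klf1, 3.021 for Gata1, 1417 for Hba-a1, 1351 for Hbb-bs and 176.8 for Hbb-bt. The same library stood apart with 10.47 CPM for Elane, 21.55 for Camp, 162.5 for Ngp, 68.28 for S100a8 and 10.47 for Kitl. Tu_F replicate 3 stood apart for Afp, at 4153 CPM. Among peritumour libraries under the Slc4a1 threshold, Pe_F replicate 1 stood apart with 2.135 CPM for Slc4a1, 2.603 for Klf1 and 526.1 for Hbb-bs, and Pe_F replicate 10 with 4.314 CPM for Muc13.

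The class difference of Krt19 was larger in tumour than in peritumour tissue by 4.459 on the log2 scale, by a test of that difference.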

How the results depend on the processing

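The 181 peritumour calls became 467 with Slc4a1 as a continuous term, 595 within the second code style and 758 with DESeq2, and 74 to 703 when each replicate was left out in turn. The 880 tumour calls became 423 within that style and 1867 with DESeq2, and 235 to 908 with a replicate left out. Calls in the gene lists went from 69 to 48 to 99 in peritumour tissue with a replicate left out, and in tumour from 44 to 110 with DESeq2 and to 7 to 80 with a replicate left out. The test between tissues gave 358 genes with the animal as a replicate block, 75 with no block, and 5 to 1046 with a replicate left out. Where calls changed, the cause was not tested. Over single named genes, 6864 alternative values stayed on their side of the threshold, 410 lost and 164 gained a call, and none changed sign. The comparison of peritumour classes cannot hold the block, since each animal gives 1 library per tissue. Limits are 3 libraries in the high class, classes set by a measured value, counts of low genes (0 to 3 reads in many libraries) and 1 genotype.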
